A study of Rattus norvegicus with 9 samples.

Results

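The genes described here encode secreted and membrane proteins that organise synapses, in cultured glial progenitors of the newborn rat. They are Cbln1, C1ql1, Nxph1, Nrxn2, Nrxn3, Nlgn1, Nlgn2 and Nlgn3. Members were found by gene symbol, and 7 of these 8 genes had a probe, with 11 probes in all among the 16865 probes of 1 symbol, which cover 12167 genes. Nrxn3 was not analysed here. Cbln1 was chosen because its values were higher in the cells positive for NG2 only than in the cells positive for both NG2 and A2B5, so that difference is given as a description without a test. No measured value is given for the choice of the others.

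The cells were separated by their surface antigens from cultures of oligodendrocyte progenitors of newborn rats, of a strain that no source used here names. The 3 populations were O4 (O4-positive, NG2-negative), NG2/A2B5 (positive for both antigens) and NG2 (positive for NG2 only), with 3 one-colour arrays each, numbered I, II and III. NG2 is a proteoglycan on the progenitor surface, the A2B5 antibody binds gangliosides found early in the lineage, and the O4 antibody binds sulfatides that appear later in it. All 3 populations came from the same kind of culture, with no treatment stated. Whether a numeral is a culture is not stated, so a p-value here reflects only how the 9 arrays spread, which may be partly technical.

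Synapse organisers hold the sending and the receiving side of a synapse together across the cleft. Neurexins sit mainly on the presynaptic membrane and bind neuroligins on the postsynaptic membrane, and cerebellins bridge neurexins to delta-type glutamate receptors, while C1q-like proteins bind the adhesion receptor encoded by Adgrb3. Oligodendrocyte progenitors are unusual among glia in that they receive synapses from neurons, and in mice they are known to transcribe several of these genes, among them C1ql1, Nxph1 and Nlgn3.

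Values are scaled intensities on a linear scale, in which the median probe of an array read between 1.05 and 1.07. The 25th percentile of each array, from 0.205 to 0.255, is used below as the mark of a low reading. Intensity depends on the probe as well as on the RNA, so levels are compared between arrays for 1 probe and not between genes. In bulk samples fewer cells expressing a gene and less RNA per cell cannot be told apart. Of 11 listed genes of the oligodendrocyte lineage 8 were measured, and 7 of them read above the 25th percentile on all 9 arrays. The summed intensity of the measured genes was 531 to 827 in O4 cells, 543 to 763 in NG2/A2B5 cells and 585 to 705 in NG2 cells. Most of that sum is Bcas1, Cnp and Cspg4. Cspg4 encodes NG2, the antigen that O4 cells were sorted as lacking. It read 92.1 or more on every array, and the populations overlapped. Its log2 difference was -0.30 in O4 minus NG2 and -0.15 in O4 minus NG2/A2B5. The RNA of this sorting marker thus did not separate the populations. Of the measured lineage genes Pdgfra, the receptor that defines early progenitors, read above the 25th percentile on 8 arrays.

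Cbln1 encodes cerebellin 1, a secreted protein known from cerebellar granule cells. It separated the 3 populations. Its intensity was 3.70, 3.44 and 4.27 in O4 cells (arrays I, II and III), 2.55, 1.68 and 2.17 in NG2/A2B5 cells, and 5.56, 5.91 and 5.70 in NG2 cells. Each NG2 array read above each O4 array, and each O4 array above each NG2/A2B5 array, so the same order held within each numeral. On the log2 scale the means were 1.92 ± 0.16 in O4 cells, 1.07 ± 0.31 in NG2/A2B5 cells and 2.52 ± 0.04 in NG2 cells (SD, n = 3 each).

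**Figure D1:**
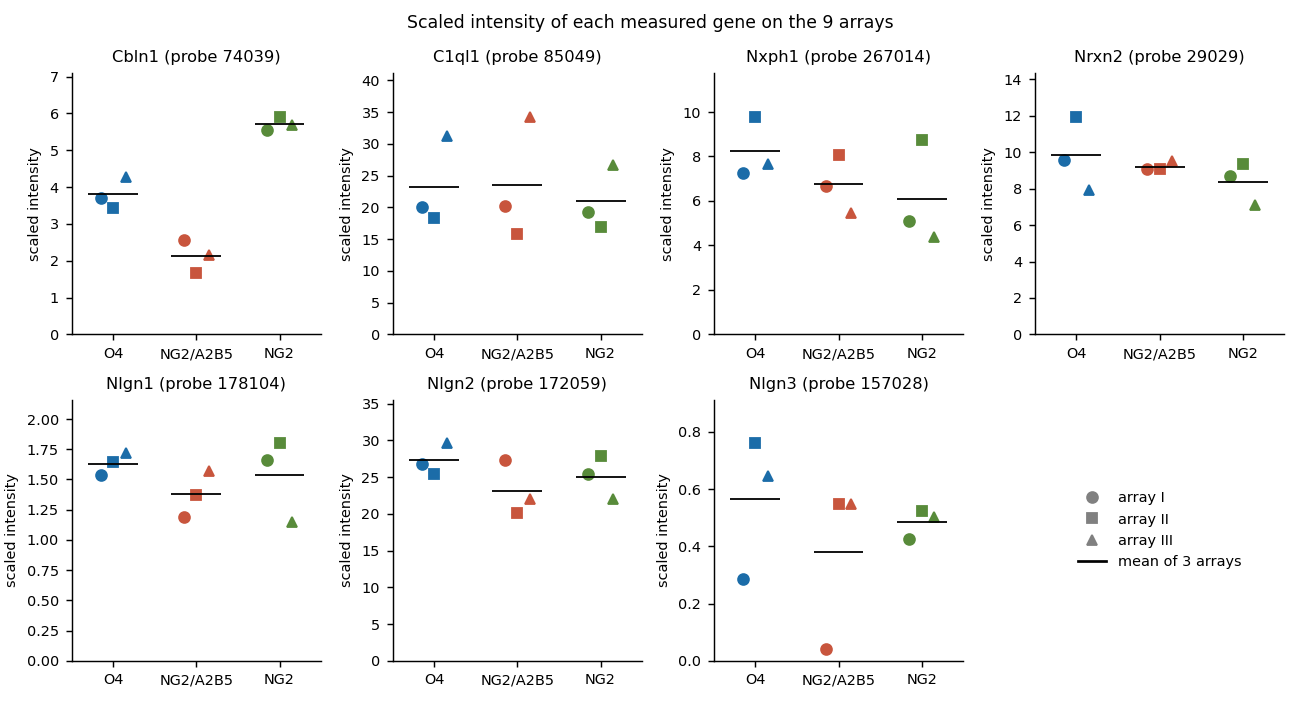
Scaled intensity (linear axis from 0) of the brightest probe of each of the 7 measured genes in O4, NG2/A2B5 and NG2 cells. Points are single arrays, shaped by numeral, and lines are means of 3 arrays; for Cbln1 no population overlaps another, while for C1ql1 the 3 triangles (array III, 26.7 to 34.3) lie above the other arrays in every population.

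The difference on which Cbln1 was chosen, NG2/A2B5 minus NG2, was -1.44 on the log2 scale, or 2.72-fold lower in NG2/A2B5. O4 lay between. It was 0.59 log2 units lower than NG2 (difference -0.59, standard error 0.18, 95% interval -1.02 to -0.17) and higher than NG2/A2B5 by 0.85 (interval 0.42 to 1.28), or 1.80-fold. Both O4 contrasts share arrays with the difference that chose the gene and are not independent of it. Neither passed by limma, with an adjusted p of 0.566 against NG2 and an adjusted p of 0.9997 against NG2/A2B5. The arrays of the populations compared were apart in the same direction in 6.54% of all genes for O4 minus NG2, 5.30% for O4 minus NG2/A2B5 and 5.0% for NG2/A2B5 minus NG2. An exact permutation test of 3 arrays against 3 cannot go below a two-sided p of 0.1.

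Leaving out each array in turn gave Cbln1 differences from -0.68 to -0.52 in O4 minus NG2, from 0.69 to 0.99 in O4 minus NG2/A2B5 and, for the difference that chose it, from -1.59 to -1.28. Cbln1 has 1 probe, so no second probe could be set against it. Among all genes, 0.690% had 3 populations whose arrays did not overlap in any order. The order seen for Cbln1, with NG2 highest and NG2/A2B5 lowest, was found in 5 genes of 12025, or 0.0416%, a share from which nothing is read because the gene was chosen on part of this order.

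The other 4 genes with that order, named after their values were seen, were Cd302, Cygb, Kcna4 and Slc30a1. Cd302 encodes a lectin receptor and averaged 3.18 in O4 cells, 2.12 in NG2/A2B5 cells and 3.90 in NG2 cells on the log2 scale. Cygb encodes cytoglobin, an oxygen-binding globin, and averaged 1.51, 1.05 and 1.93 in O4, NG2/A2B5 and NG2. The potassium channel gene Kcna4 and the zinc transporter gene Slc30a1 read above the 25th percentile on 6 and 2 of the 9 arrays, so their order rests partly on low readings.

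Likeness to Cbln1 was measured as the root mean square difference of log2 values centred on the mean of each gene over the 9 arrays, among 8898 genes above the 25th percentile on every array. The nearest were Cd83 at 0.25, Cd302 at 0.26, Ebf3 and Cygb at 0.27, and Lgals3bp at 0.28, where a gene with no change at all would stand at 0.62. Cd83 encodes a surface protein of dendritic cells and lymphocytes and averaged 2.69 in O4 cells, 2.01 in NG2/A2B5 cells and 2.90 in NG2 cells. Ebf3, a transcription factor gene of neuronal development, averaged 4.87, 4.06 and 5.38 in O4, NG2/A2B5 and NG2, but a second probe, low on 3 arrays, gave an NG2/A2B5 minus NG2 difference of 0.49 against -1.33 for the probe used. Lgals3bp encodes a secreted glycoprotein that binds galectins, and its second probe, above the 25th percentile on all 9 arrays, gave 0.27 against -0.91. These genes were ranked on 9 arrays that include the 6 on which Cbln1 was chosen.

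Because Cbln1 is a gene of cerebellar neurons, neuronal markers were read beside it. Of 8 listed markers of cerebellar granule and Purkinje cells 7 were measured, and 2 of them, Neurod1 and Pax6, read above the 25th percentile on all arrays. The 7 measured markers summed to an intensity of 3.84 to 6.06 in O4 cells, 3.67 to 4.45 in NG2/A2B5 cells and 4.12 to 5.73 in NG2 cells. The highest O4 sum, on array I, includes a Calb1 reading of 2.13, against 0.0383 and 0.391 on O4 arrays II and III. Gabra6, a receptor subunit that defines mature granule cells, read 0.311, 0.255 and 0.352 in O4 cells, 0.294, 0.375 and 0.309 in NG2/A2B5 cells, and 0.187, 0.360 and 0.196 in NG2 cells, and it was under the 25th percentile on NG2 arrays I and III and, marginally, on O4 array II. Pax6, a progenitor and granule cell transcription factor, read 1.75 to 2.89 in O4 cells, 1.33 to 2.67 in NG2/A2B5 cells and 2.02 to 3.79 in NG2 cells, and the ranges overlapped. Its differences, -0.42 in O4 minus NG2, 0.20 in O4 minus NG2/A2B5 and -0.63 in NG2/A2B5 minus NG2, had the signs of those of Cbln1. Those of Gabra6 in the same order, 0.36, -0.10 and 0.46, had the opposite signs. Of the 7 measured markers 4, 5 and 4 were positive in these contrasts. No gene of this list passed in any contrast. Their part in the Cbln1 values was not tested.

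General neuron markers summed to 32.4 to 49.6 in O4 cells, 30.0 to 50.4 in NG2/A2B5 cells and 30.1 to 41.5 in NG2 cells, with 8 of 12 measured genes above the 25th percentile on all arrays. Snap25, a defining gene of synaptic terminals, was under that mark on all 9. Others of the list were above it on all 9 arrays. Over these Dcx read 4.04 to 21.4, Gad1 6.06 to 15.4, Elavl3 5.11 to 9.93 and Syp 2.10 to 7.03. Markers of microglia, the cells that make the related C1q proteins, summed to 6.72 to 9.61 in O4 cells, 4.92 to 6.50 in NG2/A2B5 cells and 5.33 to 6.62 in NG2 cells, and each O4 sum was above each sum of the other populations. Most of that sum is Itgam, an integrin of microglia and other myeloid cells, which read 5.24 to 7.94 in O4 cells, 3.88 to 5.42 in NG2/A2B5 cells and 4.08 to 5.18 in NG2 cells. For Itgam O4 overlapped NG2/A2B5, while each O4 array read above each NG2 array. The other 6 genes summed to 1.36 to 1.66, 1.04 to 1.59 and 0.918 to 1.44 in O4, NG2/A2B5 and NG2, and these sums overlapped. C1qa and C1qb read under the 25th percentile on all arrays. Astrocyte markers summed to 49.2 to 94.6 in O4 cells, 61.7 to 107 in NG2/A2B5 cells and 65.5 to 82.8 in NG2 cells. Most of that sum is Slc1a3, which read 38.6 to 83.6 in O4 cells, 52.1 to 96.4 in NG2/A2B5 cells and 55.1 to 71.8 in NG2 cells. Gfap read above the 25th percentile on 6 arrays, and at most 0.597. The part of these markers in the values was not tested.

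C1ql1 encodes a secreted C1q-like protein known as a climbing fibre signal in the mouse cerebellum and as a marker of progenitors. Its population means lay close together, while its arrays separated by numeral. Its intensity was 20.1, 18.4 and 31.3 in O4 cells (I, II and III), 20.3, 15.8 and 34.3 in NG2/A2B5 cells, and 19.2, 16.9 and 26.7 in NG2 cells. Within each population array III was the highest and array II the lowest, and the populations overlapped throughout.

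By population C1ql1 averaged 4.50 ± 0.41 in O4 cells, 4.48 ± 0.57 in NG2/A2B5 cells and 4.36 ± 0.34 in NG2 cells on the log2 scale (SD, n = 3 each). O4 exceeded NG2 by 0.14 (interval -0.66 to 0.94) and NG2/A2B5 by 0.02 (-0.77 to 0.82), and NG2/A2B5 exceeded NG2 by 0.12 (-0.68 to 0.91), with no difference past the test. All 3 intervals span at least -0.66 to 0.82, so the missing calls do not show equal levels. These intervals come from a fit without the numeral, in which the standard error was 0.34. With the numeral as a fixed replicate block the differences were the same and the standard error was 0.13. The lowest adjusted p of the C1ql1 contrasts by limma was then 0.664. The width given here thus includes variation between numerals. By numeral the means over the 3 populations were 4.31 for I, 4.09 for II and 4.94 for III, and the 3 numerals did not overlap. The spread between populations within a numeral was 0.12 (SD), against 0.45 between arrays within a population.

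A limma F test over the numerals, with population in the model, gave C1ql1 an unadjusted p of 0.00212 and an adjusted p of 0.0790, short of the threshold of 0.05. It passed with trend and robust variance estimates (adjusted p = 0.00151), with low readings raised to the 25th percentile (0.0232) and without genes under that percentile (0.0334), where 14.9%, 7.55% and 6.10% of genes were called. With all probes tested it was at 0.198, and with the mean of the probes at 0.113. In the test as first given, 0.674% of 12166 genes were called, and 21.5% had an unadjusted p under 0.05. In 2.96% of 12025 genes the arrays of the 3 numerals did not overlap, as in C1ql1. What a numeral stands for is not given by the labels.

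**Figure D2:**
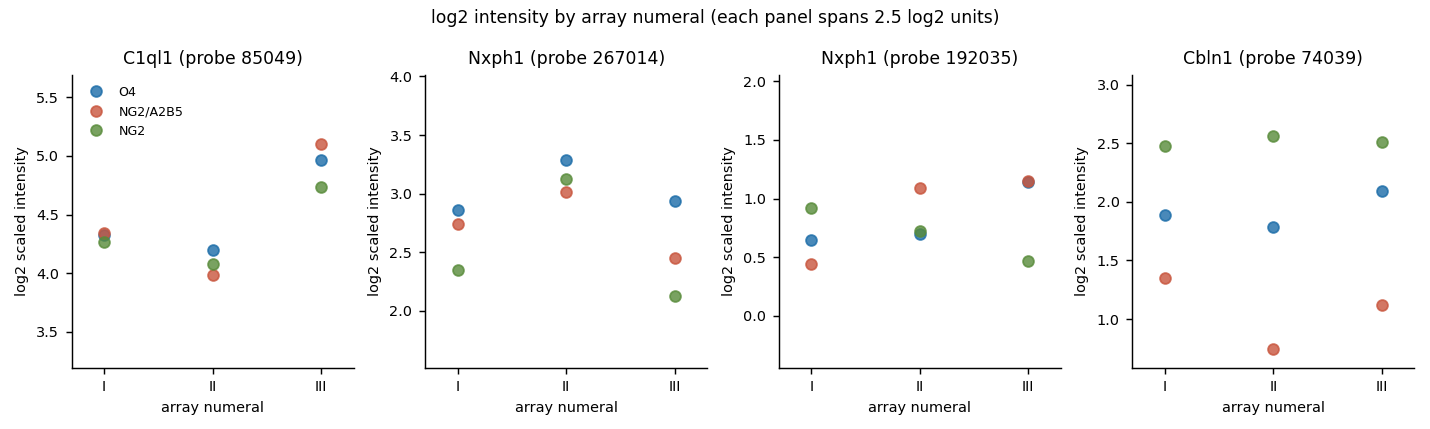
log2 scaled intensity of C1ql1, of both Nxph1 probes and of Cbln1 by array numeral, coloured by population, 1 point per array. C1ql1 separates by numeral (means 4.31, 4.09 and 4.94 for I, II and III), probe 267014 of Nxph1 is highest on the 3 arrays II, its probe 192035 does not repeat that, and Cbln1 separates by population.

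The 5 genes nearest to C1ql1 over the 9 arrays were Ip6k2 at a root mean square difference of 0.08, Asrgl1 at 0.10, Atp6v1g2 and Tmem86a at 0.13, and Retreg2 at 0.14, where a gene with no change would stand at 0.37. Ip6k2 encodes an inositol hexakisphosphate kinase and averaged 5.73 in O4 cells, 5.76 in NG2/A2B5 cells and 5.68 in NG2 cells. Asrgl1 encodes an asparaginase and averaged 4.43, 4.29 and 4.30 in O4, NG2/A2B5 and NG2, and Atp6v1g2 encodes a subunit of the proton pump of acidic vesicles. Ip6k2, Asrgl1, Atp6v1g2 and Tmem86a each have a second probe above the 25th percentile on all 9 arrays. In O4 minus NG2 these gave -0.06, 0.02, -0.21 and -0.13, against 0.05, 0.13, 0.15 and 0.40 for the probes used. Whether the second probes separate by numeral was not read.

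Nxph1 encodes neurexophilin 1, a secreted glycoprotein that binds neurexins, and has 2 probes. On the brighter one, probe 267014, the intensity was 7.27, 9.79 and 7.68 in O4 cells, 6.69, 8.09 and 5.46 in NG2/A2B5 cells, and 5.09, 8.74 and 4.37 in NG2 cells. The order of the means ran from O4 to NG2/A2B5 to NG2, and the populations overlapped. Within each numeral O4 read above both others, and array II was the highest of each population. The log2 means were 3.03 ± 0.23 in O4 cells, 2.73 ± 0.28 in NG2/A2B5 cells and 2.53 ± 0.53 in NG2 cells (SD, n = 3 each).

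The largest Nxph1 difference, O4 minus NG2, was 0.50 (interval -0.17 to 1.17, adjusted p 0.709 by limma), against 0.30 in O4 minus NG2/A2B5 (-0.37 to 0.97) and 0.20 in NG2/A2B5 minus NG2 (-0.47 to 0.87). Without array II of NG2 O4 minus NG2 was 0.79, and without array III of NG2 it was 0.29. Each moves the value by over 1.5 times. All 3 arrays II lay above all other arrays, which was seen for 1 numeral above both others in 14.0% of all genes. The limma F test over numerals gave an adjusted p of 0.167, or 0.313 with all probes tested. With trend and robust variance estimates, which called 14.9% of genes, it was 0.0275.

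Probe 192035 of Nxph1, also above the 25th percentile on all 9 arrays, did not show the same pattern. It read 1.57, 1.62 and 2.21 in O4 cells, 1.35, 2.13 and 2.21 in NG2/A2B5 cells, and 1.89, 1.65 and 1.39 in NG2 cells. Here the populations overlapped with no common numeral on top, and the differences were 0.13 for O4 minus NG2, -0.06 for O4 minus NG2/A2B5 and 0.19 for NG2/A2B5 minus NG2. With the mean of both probes the numeral F test had an adjusted p of 0.481.

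The genes nearest to the brighter Nxph1 probe were Arpc4, Ccdc86, Psmd13, Cited1 and Cbr3, at root mean square differences of 0.11 to 0.12, against 0.36 for a gene with no change. Arpc4 encodes a subunit of the actin-branching complex and averaged 6.02 in O4 cells, 5.78 in NG2/A2B5 cells and 5.52 in NG2 cells, while Psmd13, a proteasome subunit gene, averaged 7.12, 6.93 and 6.53 in O4, NG2/A2B5 and NG2.

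Nrxn2 encodes the presynaptic receptor neurexin 2. It read 9.59, 11.9 and 7.93 in O4 cells, 9.05, 9.05 and 9.49 in NG2/A2B5 cells, and 8.66, 9.35 and 7.07 in NG2 cells. All populations overlapped, and the NG2/A2B5 arrays lay closest together. The means were 3.28 ± 0.29 in O4 cells, 3.20 ± 0.04 in NG2/A2B5 cells and 3.05 ± 0.21 in NG2 cells on the log2 scale (SD, n = 3 each). Neighbours in this order differed by less than their spread, by 0.07 in O4 minus NG2/A2B5 (interval -0.37 to 0.52) and 0.15 in NG2/A2B5 minus NG2 (-0.29 to 0.59), and O4 minus NG2 was 0.22 (-0.22 to 0.66). Leaving out array II of O4 gave 0.07 for O4 minus NG2, leaving out array III of NG2 gave 0.11, and leaving out array III of O4 gave 0.37. A second probe, 42107, exceeded the 25th percentile on 1 array and adds little.

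Nlgn2 encodes neuroligin 2, the postsynaptic partner of neurexins at inhibitory synapses, and had the narrowest intervals of the 7 genes. Probe 172059 read 26.8, 25.4 and 29.6 in O4 cells, 27.4, 20.2 and 22.0 in NG2/A2B5 cells, and 25.4, 27.9 and 22.0 in NG2 cells. The populations overlapped, with means of 4.77 ± 0.11, 4.52 ± 0.23 and 4.64 ± 0.17 on the log2 scale in O4, NG2/A2B5 and NG2 (SD, n = 3 each). O4 minus NG2 came to 0.13 (interval -0.27 to 0.52), O4 minus NG2/A2B5 to 0.25 (-0.15 to 0.64) and NG2/A2B5 minus NG2 to -0.12 (-0.52 to 0.28). Leaving out 1 array moved O4 minus NG2 to values from 0.034 (without array III of NG2) to 0.20 (without array II of NG2).

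Nlgn2 has 2 dimmer probes. Probe 240016, above the 25th percentile on 8 arrays, ranged from 0.122 to 0.410 and gave the opposite sign in each contrast, with -0.31 for O4 minus NG2, -0.64 for O4 minus NG2/A2B5 and 0.33 for NG2/A2B5 minus NG2. Probe 144013 exceeded that mark on 1 array.

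**Figure D3:**
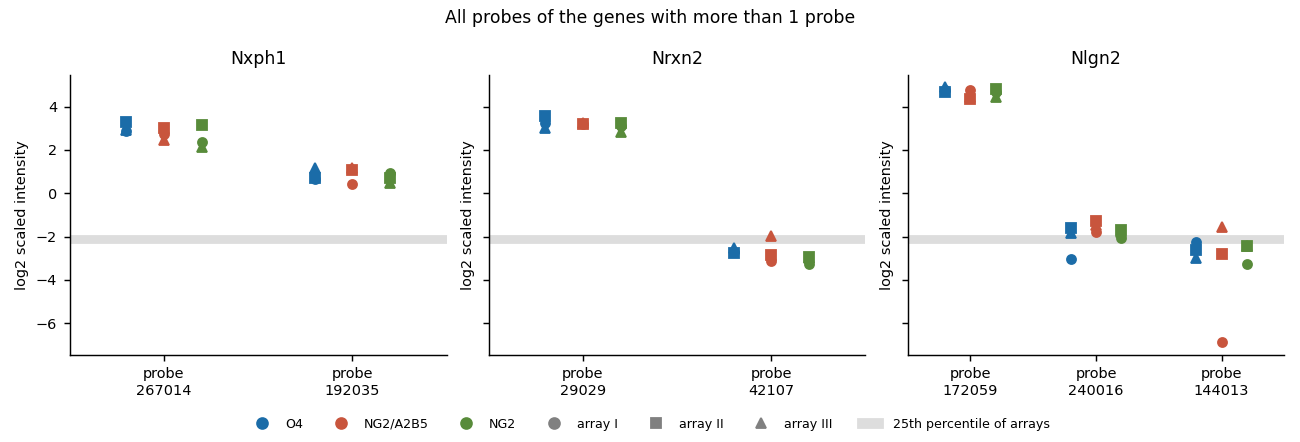
log2 scaled intensity of every probe of Nxph1, Nrxn2 and Nlgn2 on the 9 arrays, coloured by population and shaped by numeral, with the range of the 25th percentiles of the arrays as a grey band. Both Nxph1 probes lie above the band, while the second probe of Nrxn2 and the 2 dimmer probes of Nlgn2 have readings in, near or under it, the lowest for probe 144013 on array I of NG2/A2B5 (intensity 0.0086).

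Nlgn1 encodes neuroligin 1, which acts mainly at excitatory synapses. Its intensity was 1.54, 1.64 and 1.72 in O4 cells, 1.19, 1.37 and 1.57 in NG2/A2B5 cells, and 1.66, 1.80 and 1.15 in NG2 cells. The lowest reading was array III of NG2 and the highest array II of NG2, so that population spanned both others. O4 minus NG2 came to 0.11 (interval -0.36 to 0.59), O4 minus NG2/A2B5 to 0.25 (-0.22 to 0.73) and NG2/A2B5 minus NG2 to -0.14 (-0.62 to 0.34).

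Nlgn3 encodes neuroligin 3, whose shed outer part is known as a growth signal for glioma cells. It read 0.285, 0.761 and 0.647 in O4 cells, 0.0397, 0.547 and 0.549 in NG2/A2B5 cells, and 0.424, 0.523 and 0.502 in NG2 cells. Array I of NG2/A2B5 was under its 25th percentile of 0.218, and the other arrays were above theirs. That array set the apparent differences, with O4 minus NG2/A2B5 at 1.19 (interval -1.06 to 3.43) and NG2/A2B5 minus NG2 at -1.08 (-3.32 to 1.17), while O4 minus NG2 was 0.11 (-2.14 to 2.36). Without it O4 minus NG2/A2B5 was -0.08 and NG2/A2B5 minus NG2 was 0.19. The 3 arrays I were the lowest of all 9, with an adjusted p of 0.288 in the limma F test over numerals. The share of all genes with 1 numeral below both others was not counted, and 14.0% had 1 numeral above both.

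**Figure D4:**
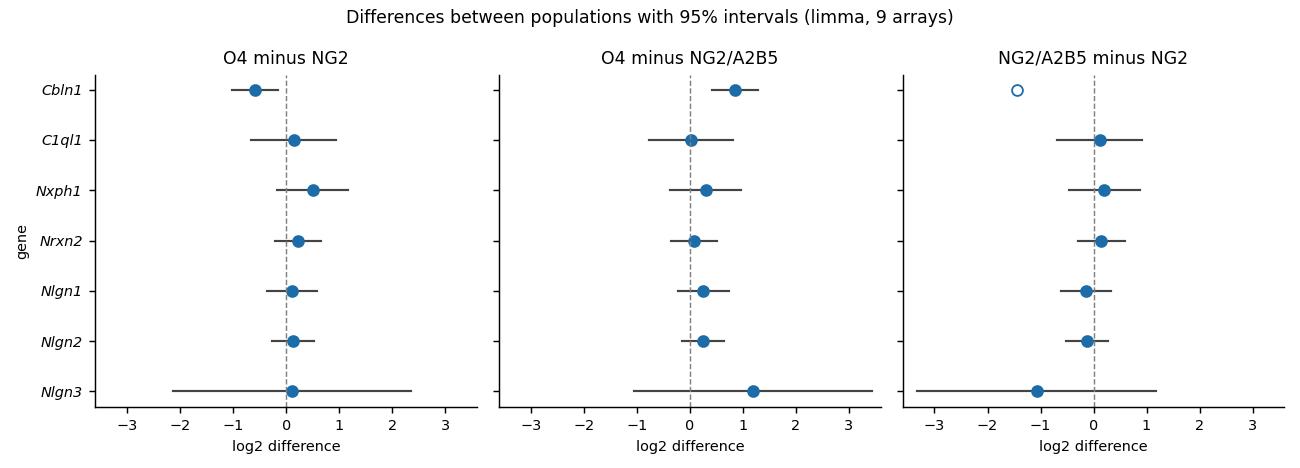
log2 differences (horizontal axis) with 95% intervals for the 7 measured genes in the 3 contrasts, from limma on 9 arrays, with positive values higher in the population named first. The open circle marks the Cbln1 difference on which the gene was chosen, drawn without an interval, and the 18 intervals of the other 6 genes span 0.

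Across the 6 measured genes other than Cbln1, 0 of 18 differences passed at an adjusted p under 0.05 by limma, and 0 had an unadjusted p under 0.05 in this fit, with adjusted p-values from 0.709 to 0.9999. Arrays of the populations compared were apart in 0 of the 18. Among all genes the test called 0.00822% in O4 minus NG2, 0.00822% in O4 minus NG2/A2B5 and 0% in NG2/A2B5 minus NG2. An unadjusted p under 0.05 was found in 8.0%, 3.28% and 4.48% of genes in these 3 contrasts, and arrays apart in 14.0%, 8.67% and 10.2%. All 6 differences of O4 minus NG2 were positive, with a median of 0.13 against 0.02 over all genes, and all 6 of O4 minus NG2/A2B5, with a median of 0.25 against 0.02. The contrasts share the O4 arrays, and leaving out 1 array turned the sign for C1ql1, Nrxn2, Nlgn1 or Nlgn3. In NG2/A2B5 minus NG2, 3 were positive and 3 negative.

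The spread between arrays of a population differed among the genes. Averaged over populations it was 0.20 for Cbln1, 0.45 for C1ql1, 0.37 for Nxph1, 0.21 for Nrxn2, 0.24 for Nlgn1 and 0.18 for Nlgn2 (SD on the log2 scale), against a median of 0.27 over the 8899 genes above the 25th percentile on all arrays. For Nlgn3 it was 1.34, through the single low reading.

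Other genes of these pathways were read from lists, of which 61 of 92 genes that are no members were measured. In each of the 3 contrasts 0 were called higher and 0 lower by limma, with 4 at an unadjusted p under 0.05 in O4 minus NG2, 1 in O4 minus NG2/A2B5 and 4 in NG2/A2B5 minus NG2. Positive and negative differences stood at 30 and 31 in O4 minus NG2, 22 and 39 in O4 minus NG2/A2B5, and 29 and 32 in NG2/A2B5 minus NG2, with medians of -0.03, -0.17 and -0.04 where all genes had 0.02, 0.02 and -0.01. Differences were positive in 51.9%, 53.2% and 48.4% of all genes in these contrasts.

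The lists, counted with the members, are given in the order O4 minus NG2, O4 minus NG2/A2B5 and NG2/A2B5 minus NG2. The cerebellins and C1q-like genes had 4 of 8 genes measured, of which 2, 3 and 2 were positive, with medians of -0.23, 0.14 and -0.15. Of the 3 measured receptor genes 2, 1 and 1 were positive. The neurexins and neurexophilins had 4 of 7 measured, of which 4, 3 and 3 were positive, with medians of 0.36, 0.19 and 0.17. Other ligands and presynaptic partners of neurexins had 14 of 20, of which 9, 9 and 5 were positive, with medians of 0.11, 0.09 and -0.08. The scaffolds, proteases and other partners of neuroligins had 20 of 23, of which 10, 8 and 8 were positive, with medians of -0.01, -0.10 and -0.06. Other synapse organisers had 23 of 37, of which 9, 5 and 13 were positive, with medians of -0.18, -0.26 and 0.11.

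Among the secreted organisers, Cbln2, the cerebellin of forebrain neurons, read 0.491, 0.199 and 0.304 in O4 cells, 0.429, 0.365 and 0.375 in NG2/A2B5 cells, and 0.630, 0.493 and 0.447 in NG2 cells, with O4 array II under its 25th percentile. Each NG2 array was above each NG2/A2B5 array, and O4 overlapped both, with a difference of -0.74 for O4 minus NG2 that did not pass. Probes 98059 and 134071 of Cbln2, each above the 25th percentile on 1 array, gave -0.81 and 0.54 in that contrast. C1ql3, a C1q-like gene of forebrain neurons, read 6.66, 3.39 and 7.75 in O4 cells, 4.28, 4.60 and 5.31 in NG2/A2B5 cells, and 5.17, 1.89 and 5.06 in NG2 cells, with overlap throughout. The neurexophilin gene Nxph3 differed by 1.12 in NG2/A2B5 minus NG2, but its second probe gave -0.23, and Nxph4 differed by -0.23.

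On the receptor side Grid1, a delta-type glutamate receptor gene, read 0.692 to 0.839 in O4 cells, 0.589 to 0.778 in NG2/A2B5 cells and 0.679 to 0.781 in NG2 cells. The kainate receptor gene Grik2 differed by -0.65 in O4 minus NG2 at readings under the 25th percentile on 2 arrays. Grik4 was the other measured receptor gene, above the 25th percentile on all 9 arrays. It read 8.14 to 22.5 in O4 cells, 9.85 to 19.8 in NG2/A2B5 cells and 8.62 to 16.9 in NG2 cells. The 3 arrays III lay above all others, and 1 numeral was above both others in 14.0% of all genes. The receptor gene Adgrb3 was not analysed here. Among presynaptic partners the adaptor gene Apba1 differed by 0.41 in O4 minus NG2/A2B5, and Clstn2, a calsyntenin gene, exceeded the 25th percentile on 1 array.

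Of the scaffolds, Dlg3, which encodes a relative of the main postsynaptic density scaffold, read 0.269, 0.344 and 0.388 in O4 cells, 0.476, 0.519 and 0.362 in NG2/A2B5 cells, and 0.555, 0.707 and 0.548 in NG2 cells. The NG2 arrays lay above all the others, and the difference was -0.86 for O4 minus NG2, with an adjusted p of 0.857 in the limma F test over the populations. A second Dlg3 probe, low on 7 arrays, gave -0.41. Dlgap3, a scaffold-associated protein gene, read 2.61, 2.28 and 1.75 in O4 cells, 2.66, 3.34 and 2.83 in NG2/A2B5 cells, and 2.07, 1.85 and 1.89 in NG2 cells. Here each NG2/A2B5 array was above all arrays of the other populations, with an adjusted p of 0.897 in that F test. The mean was 0.60 over that of NG2, or 0.39 with its second probe, which read 0.19 higher in O4 than in NG2/A2B5. Dlg3 and Dlgap3 were named for the smallest population F test p of their list, so separation was selected for. The share of all genes with 1 population above both others was not counted. Among other organisers Nptx2, a neuronal pentraxin gene, differed by 0.60 in NG2/A2B5 minus NG2, and Gpc4, a glypican gene, has 3 probes, above the 25th percentile on 3 to 6 arrays. O4 minus NG2 was 0.78 on the Gpc4 probe used and -0.87 on probe 25106.

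**Figure D5:**
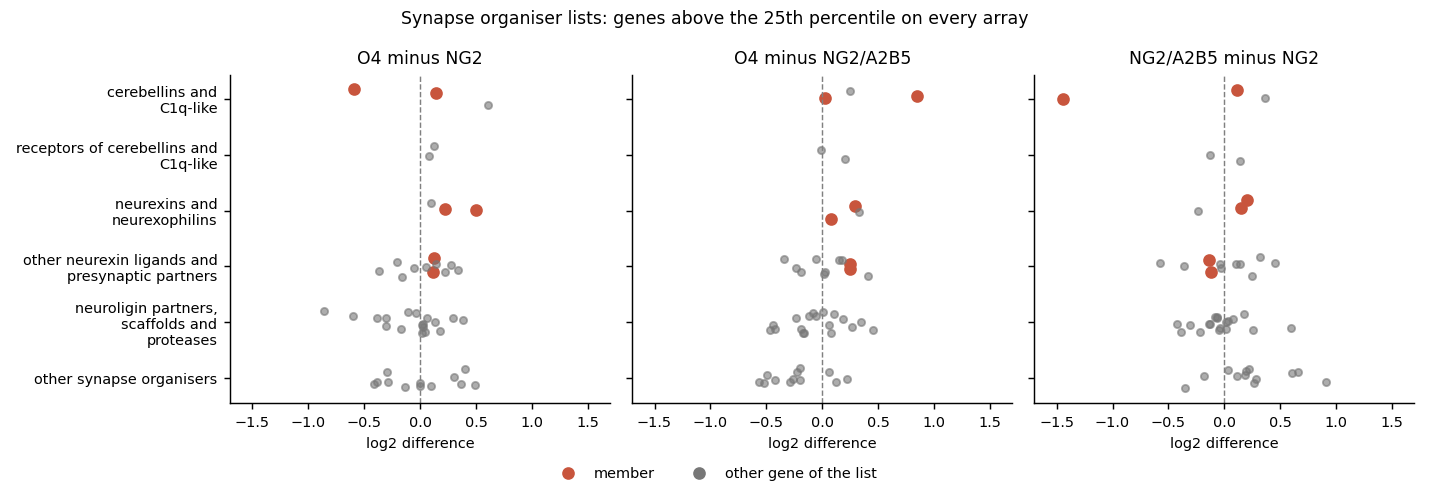
log2 differences (horizontal axis) of 49 genes of the 6 synapse organiser lists that read above the 25th percentile on all 9 arrays, 6 of them the genes named at the start (Nlgn3 is not among them; orange), with positive values higher in the population named first. Points spread on both sides of 0, and the orange point at -1.44 in NG2/A2B5 minus NG2 is the Cbln1 difference on which the gene was chosen.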

How the data were processed

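The table holds the scaled intensity of 35129 probes on 9 arrays, as deposited by the authors. Per the labels' protocols, RNA went through in vitro transcription for amplification, and normalization relied on spiked controls. No source used here names the scanner, the software or the background step. Values of -9999 were taken as missing, and values at or below 0 were set to the smallest positive value of the array before log2. Probe symbols came from the platform annotation, updated through RefSeq (GRCr8, names only, 16836 identifiers matched, 1 symbol updated), and each gene was read from its probe with the highest mean.

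Contrasts and F tests came from 1 limma 3.58.1 model (R 4.3.3, lmFit and eBayes, two-sided) on all 9 arrays and 12167 genes, with Benjamini-Hochberg adjusted p under 0.05 as the call. This leaves 6 residual degrees of freedom. The numeral F test adds the numeral to the model. Precision is limited by the number of arrays. The pipeline was tested on simulated data, and figures used matplotlib 3.10.9.

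The members and lists were chosen with earlier results of these data known. Named besides members are the 2 genes per list with the smallest population F test p, and the 5 genes nearest in pattern to Cbln1, C1ql1 and Nxph1. Grik4 was named after its values were seen. Alternatives were 2 normalizations, a filter and a floor at the 25th percentile, the mean of probes, all probes, the numeral as a block, a fit on the 6 arrays of a contrast alone, robust variance with a trend, and leaving out each array.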

Additional observations from a re-analysis of the deposited data

How the results depend on the processing

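Over the 568 values of the 7 genes under other settings, F tests included, 544 were unchanged, 20 turned sign, 4 newly passed and 0 ceased to pass. Unchanged means on the same side of the threshold and, for a difference, with the same sign. An F value has no direction. For the Cbln1 difference that chose the gene no test was used, and unchanged means the same sign and a shift within its SD between arrays. The 4 that passed are the numeral tests of C1ql1 and Nxph1 given above. Cbln1 kept its direction in every contrast and setting tried. Outside the omission of arrays it was at -0.59 to -0.52 for O4 minus NG2 (lowest adjusted p 0.275 by limma). It was at 0.85 to 0.91 for O4 minus NG2/A2B5 (lowest 0.653) and -1.44 to -1.43 for NG2/A2B5 minus NG2. Of these settings only the 2 normalizations could change its estimates. As its populations do not overlap, omitting 1 array cannot turn a sign. The kept direction was thus largely fixed in advance and is no support. The mean of the probes turned Nlgn2 to -0.029 in O4 minus NG2. Other probes turned Nlgn2 (probe 240016: -0.31 in O4 minus NG2, -0.64 in O4 minus NG2/A2B5 and 0.33 in NG2/A2B5 minus NG2), Nrxn2 (probe 42107: -0.027 in O4 minus NG2/A2B5) and Nxph1 (probe 192035: -0.062 in O4 minus NG2/A2B5). Omitting 1 array at a time gave, for O4 minus NG2, -0.10 to 0.33 for C1ql1, -0.085 to 0.24 for Nlgn1 and -0.17 to 0.54 for Nlgn3. For O4 minus NG2/A2B5 it gave -0.22 to 0.34 for C1ql1, -0.076 to 0.22 for Nrxn2 and -0.077 to 1.82 for Nlgn3. For NG2/A2B5 minus NG2 it gave -0.20 to 0.36 for C1ql1, -0.0024 to 0.50 for Nxph1 and -1.71 to 0.19 for Nlgn3. The cause was not tested, apart from the low Nlgn3 reading of array I of NG2/A2B5.

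Among all genes, limma called 1 gene in O4 minus NG2, 1 in O4 minus NG2/A2B5, 0 in NG2/A2B5 minus NG2, 1 in the F test over populations and 82 in that over numerals. With the filter, the floor or trend and robust variance, the counts were 0 in O4 minus NG2, 0 in O4 minus NG2/A2B5 and 0 in the population F test, and 627, 919 and 1818 in the numeral F test. Fitting 6 arrays gave 0 in O4 minus NG2. Both the mean of the probes and all probes gave 2 in O4 minus NG2, 1 in NG2/A2B5 minus NG2 and 2 in the population F test, with 36 and 0 in the numeral F test. Omitting 1 array gave 1 to 2 in O4 minus NG2, 0 to 4 in O4 minus NG2/A2B5, 0 to 3 in NG2/A2B5 minus NG2 and 1 to 4 in the population F test. Same-numeral arrays of different populations had weakly correlated deviations (r = 0.037 to 0.144 over 12025 genes, over 0.1 in 3 of 9 pairs). Of 9 arrays 9 matched their own numeral best. What arrays of 1 numeral have in common is not given by the labels and was not tested. With the numeral as a fixed replicate block the counts were 0 in O4 minus NG2, 0 in O4 minus NG2/A2B5, 0 in NG2/A2B5 minus NG2 and 0 in the population F test, with 1597, 738 and 1057 genes at an unadjusted p under 0.05 in these contrasts, and O4 minus NG2 had an adjusted p of 0.308 for Cbln1 and 0.332 for Nxph1 (unadjusted 0.0257). With the numeral as a random replicate block these counts were 1, 1, 0 and 1. No depth is known for arrays. Second probes of Nrxn2 and Nlgn2 and 1 Nlgn3 reading lie near background, which limits what they show.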
